A study of Mus musculus with 6 samples.

Results

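Genes for the binding, storage and transport of iron were followed in 6 mouse breast tumors. The set held 10 genes, matched through their NCBI Gene identifiers, of 18460 genes listed in at least 1 tumor. The 10 were chosen by symbol and known function, with earlier results of these data known. They fall into secreted iron carriers (*Ltf*, *Trf* and *Lcn2*), iron storage (*Fth1* and *Ftl1*), iron uptake and export (*Tfrc*, *Slc11a2* and *Slc40a1*) and the iron regulatory proteins (*Aco1* and *Ireb2*). All 10 were listed in all 6 tumors and all 10 passed the filter on low counts.

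The study asked how CD4+ T cells stimulated by thymic stromal lymphopoietin (TSLP) act on breast tumors. Total RNA was sequenced from 3 control tumors, labelled PyMTtg;Rag1KO+CD4+ T cells, and 3 test tumors, labelled K14-TSLPtg;PyMTtg;Rag1KO+CD4+ T cells, with each tumor taken from a separate mouse. All mice were Balb/c, carried the PyMT oncogene under the MMTV promoter and lacked Rag1 and so their own T and B cells. They received sorted naive CD4+ T cells from donor spleens at 4 weeks of age. The endpoint is recorded here as 18 to 20 weeks for both groups. For mice lacking Rag1 the paper states only an endpoint of at least 18 weeks. A difference in age at harvest between the groups could thus not be checked. The groups differed in a TSLP transgene driven by the keratin 14 promoter, which is active in keratinocytes.

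Iron circulates bound to transferrin (*Trf*) and enters cells through the transferrin receptor (*Tfrc*). Inside the endosome it is moved to the cytosol by the divalent metal transporter (*Slc11a2*), surplus iron is stored in ferritin, a shell built of heavy (*Fth1*) and light (*Ftl1*) chains, and ferroportin (*Slc40a1*) is the exporter. Lactoferrin (*Ltf*) binds iron in milk, other secretions and neutrophil granules, and lipocalin 2 (*Lcn2*) binds iron held by siderophores. Both are known products of the mammary epithelium as well as of neutrophils. The iron regulatory proteins (*Aco1*, which is also the cytosolic aconitase, and *Ireb2*) bind a stem and loop in mRNA called the iron-responsive element. Bound near the start of the ferritin and ferroportin mRNAs they block translation, and bound in the 3' UTR of *Tfrc* mRNA they slow its decay. The control thus acts on the amount of mRNA for *Tfrc* and on the use of the mRNA for ferritin and ferroportin.

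The elements are printed here because they divide the genes into those that carry the element at the start of the mRNA and those that carry it at the end. GENCODE transcripts of GRCm38 were searched on the sense strand for a C (the bulge), any 5 bases, the 6-base loop CAGTGN and any 5 bases, in which the 5 bases on either side of the loop must pair (G with T allowed). Each window of 30 bases is given 5' to 3' with the loop in capitals. The first 3 lie in 5' UTRs, the other 5 in 3' UTRs.
Fth1, chr19:9982732-9982761, plus strand: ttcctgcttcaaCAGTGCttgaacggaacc
Ftl1, chr7:45459778-45459807, minus strand: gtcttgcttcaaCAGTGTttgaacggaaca
Slc40a1, chr1:45925464-45925493, minus strand: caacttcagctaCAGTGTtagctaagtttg
Tfrc element 1, chr16:32631219-32631248, plus strand: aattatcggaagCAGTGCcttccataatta
Tfrc element 2, chr16:32631598-32631627, plus strand: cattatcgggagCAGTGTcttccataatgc
Tfrc element 3, chr16:32631663-32631692, plus strand: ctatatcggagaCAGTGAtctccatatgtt
Tfrc element 4, chr16:32631710-32631739, plus strand: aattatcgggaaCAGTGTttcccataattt
Slc11a2, chr15:100395152-100395181, minus strand: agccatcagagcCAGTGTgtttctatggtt

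Elements with all 5 pairs were found in 4 of the 10 genes, and *Slc11a2* held one with 4 of 5 pairs. Over the annotation such a 5-pair match was present in the 5' UTR of 20 of 20192 genes (0.099%) and in the 3' UTR of 109 of 20779 genes (0.525%), and with 4 or more pairs the shares were 0.609% and 3.7%. The *Fth1* and *Ftl1* elements were the same at 26 of 30 bases, whereas the *Fth1* and *Slc40a1* elements shared 13. Elements 1 and 2 of *Tfrc* shared 25 of 30 bases. A match describes the letters of the transcript and does not show that a protein binds there.

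Total expected counts, the authors' estimates of reads per gene, were between 8373390 and 9449565 per tumor. CPM (counts scaled to library size) use these totals after correction by edgeR's TMM method, and the 10 genes are compared with each other only in FPKM, which is also divided by gene length. Control replicate 2 was closer to the test tumors than to its own group. Its Pearson correlation of log2 CPM across 13706 genes was 0.874 and 0.908 with the other controls and 0.921, 0.927 and 0.935 with test replicates 1, 2 and 3. Only this tumor was compared in this way, so the values do not show which control tumor is the unusual one. Fold changes and ratios of the 10 genes that change by more than 1.5 times or in direction without control replicate 2 are given both ways. Where values of 3 tumors are listed, they stand in the order of replicates 1, 2 and 3. *Tslp* itself was near the limit of detection, with 2, 2 and 3 counts in the control and 12, 7 and 2 counts in the test tumors, so the tumors gave no clear reading of the transgene. *Cd4* was at 1.73 to 3.73 CPM in the control and 1.04 to 1.91 CPM in the test tumors. The mammary epithelium markers *Krt18* and *Krt8* were at 373 CPM or more in every tumor.

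Per length, iron carriers and ferritin were among the more abundant mRNAs of these tumors, with ranks over the 6 tumors of 2 to 76 for *Fth1*, 4 to 57 for *Trf*, 33 to 73 for *Ftl1* and 26 to 654 for *Ltf*. *Lcn2* was first of all genes in each of the 6 tumors, with a median of 11821 FPKM in the control and 12851 FPKM in the test tumors. In the control tumors the order then ran from *Fth1* (median 9323 FPKM) and *Trf* (3179), whose ranges overlapped, to *Ftl1* (1113) and *Ltf* (178), each below its predecessor in every control tumor. In the test tumors *Trf* (2007), *Ltf* (1744), *Fth1* (1241) and *Ftl1* (932) followed *Lcn2*, with overlap between neighbors within these 4. The genes of uptake, export and regulation lay far below. *Tfrc* and *Aco1* had medians of 27.5 and 27.3 FPKM in control and 26.8 and 34.9 FPKM in test tumors, with overlapping ranges in both groups. *Ireb2* came next at 17.9 and 19.0 FPKM. *Slc11a2* at 11.0 FPKM was above *Slc40a1* at 5.34 FPKM in every control tumor, and the test tumors, with medians of 6.02 and 6.21 FPKM, did not separate them. The 10 genes together held 4.07, 2.00 and 2.66% of all counts in the control tumors and 1.90, 3.07 and 2.23% in the test tumors.

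**Figure D1:**
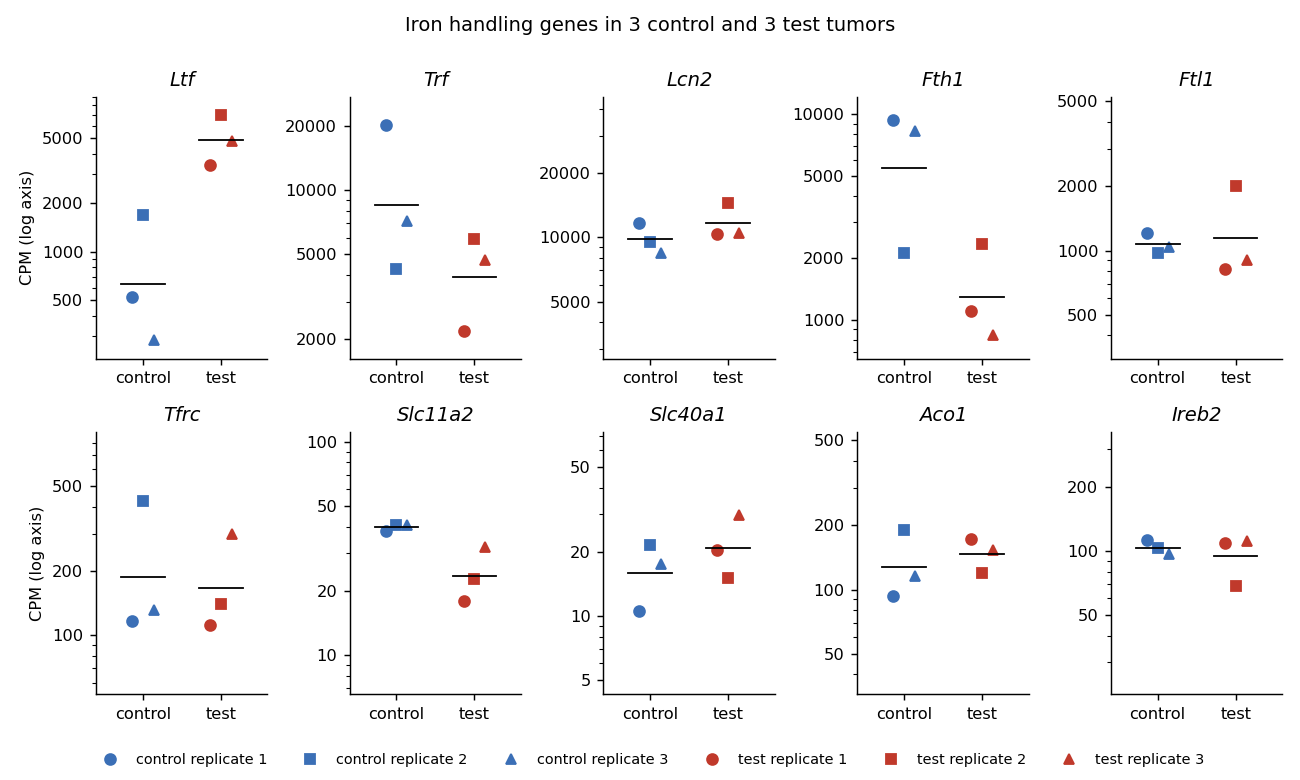
CPM on a log axis of each of the 10 iron handling genes in 3 control (blue) and 3 test (red) tumors; symbols mark the replicate number and lines the geometric mean of a group. All test tumors lie above all control tumors for *Ltf* and below them for *Slc11a2*, and for *Fth1* control replicate 2 (2112 CPM) sits among the test tumors.

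By edgeR's quasi-likelihood test none of the 10 genes passed at a false discovery rate of 0.05, and neither did any other of the 13706 genes tested (0.0%). At an unadjusted p under 0.05 there were 3, *Ltf* higher and *Fth1* and *Slc11a2* lower in test tumors, against 8.41% of all genes tested (3.15% higher and 5.26% lower). Groups were free of overlap for 2 genes, *Ltf* on the higher and *Slc11a2* on the lower side, against 12.0% of all genes tested (6.12% higher and 5.86% lower). The fold change pointed up for 5 genes and down for 5, with a median of 0.02 on the log2 scale, and the median over all genes tested was 0.018. Other tests differed in what they called. DESeq2 called 2 of the 10, *Ltf* and *Fth1*, with 2.32% of all genes, and limma on FPKM called 0. A Poisson test on counts pooled within groups, which ignores the spread between tumors, called all 10, among 9608 of the 13706 genes tested. Without control replicate 2, edgeR called *Ltf* alone, with 1.28% of all genes, and 3 of the 10 had an unadjusted p under 0.05, as did 14.3% of all genes. Overlap was then absent for 5 of the 10, *Ltf*, *Trf*, *Fth1*, *Slc11a2* and *Aco1*, and for 35.1% of all genes. Without test replicate 2 it was absent for 4, *Ltf*, *Fth1*, *Ftl1* and *Slc11a2*, and for 22.4% of all genes.

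Lactoferrin was higher in each test tumor than in any control tumor. The study had named *Ltf* among the genes upregulated in its test tumors, so the direction was known beforehand. *Ltf* (NCBI Gene 17002, chromosome 9, 111019292 to 111042766 on GRCm38) was at 524, 1678 and 285 CPM in the control tumors and at 3445, 6956 and 4821 CPM in the test tumors. Within the control group replicate 2 was well above the others. The means were 829 ± 745 CPM and 5074 ± 1769 CPM (SD, n = 3 each), with a log2 fold change of 2.61 and an SE of 0.69 (adjusted p = 0.413, edgeR's quasi-likelihood test, Benjamini-Hochberg). By the exact permutation test, two-sided, p was 0.1, the smallest that 20 splits of the tumors allow. Without control replicate 2 the log2 fold change was 3.65 (adjusted p = 0.0353 in the same edgeR test), and DESeq2 gave 2.60 with an adjusted p of 0.0031. Over 13 alternatives other than the Poisson test, the adjusted p of *Ltf* from edgeR, DESeq2 or limma ran from 0.0031 to 1.0. In bulk RNA, fewer cells of a type and less RNA per cell cannot be told apart, here and for each gene that follows.

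Transferrin leaned the other way without separating the groups. *Trf* (NCBI Gene 22041, chromosome 9, 103208876 to 103230286) was at 20326, 4255 and 7192 CPM in the control tumors and at 2198, 5883 and 4706 CPM in the test tumors. Control replicate 1 was far above the rest and control replicate 2 lay among the test tumors. The log2 fold change was -1.31 (SE 0.66; adjusted p = 0.664, edgeR's quasi-likelihood test, Benjamini-Hochberg; exact permutation test, two-sided, p = 0.3). It was -0.43 without control replicate 1 and -1.69 without control replicate 2, and in the latter case the groups no longer overlapped. *Ltf* and *Trf* encode related proteins, and their fold changes had opposite signs.

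Lipocalin 2 held its place at the top in both groups. *Lcn2* (NCBI Gene 16819, chromosome 2, 32384637 to 32387739) was at 11743, 9478 and 8488 CPM in the control tumors and at 10320, 14571 and 10489 CPM in the test tumors. Only test replicate 2 exceeded every control tumor. The log2 fold change was 0.25 (SE 0.37; adjusted p = 0.866, edgeR's quasi-likelihood test, Benjamini-Hochberg; exact permutation test, two-sided, p = 0.4), and leaving out each tumor in turn gave 0.07 to 0.39.

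The ferritin chains are described together because they share one shell. *Fth1*, the heavy chain with the ferroxidase activity (NCBI Gene 14319, chromosome 19, 9980600 to 9985111), was at 9365, 2112 and 8322 CPM in the control tumors and at 1105, 2346 and 845 CPM in the test tumors. A pair of control tumors was high and the other 4 tumors were low, control replicate 2 lying between test replicates 1 and 2. The means were 6600 ± 3921 CPM and 1432 ± 802 CPM (SD, n = 3 each), with a log2 fold change of -2.20 and an SE of 0.66 (adjusted p = 0.454, edgeR's quasi-likelihood test, Benjamini-Hochberg; exact permutation test, two-sided, p = 0.2). DESeq2 gave -2.21 with an adjusted p of 0.0121, and over 13 alternatives other than the Poisson test the adjusted p from edgeR, DESeq2 or limma ran from 0.0121 to 1.0.

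*Ftl1*, the light chain that aids mineral formation (NCBI Gene 14325, chromosome 7, 45457944 to 45459886), was at 1212, 975 and 1042 CPM in the control tumors and at 822, 1997 and 904 CPM in the test tumors. Here it was test replicate 2 that was high, and the other 5 tumors differed little. The log2 fold change was 0.21 (SE 0.41; adjusted p = 0.904, edgeR's quasi-likelihood test, Benjamini-Hochberg; exact permutation test, two-sided, p = 1.0) and it was -0.31 without test replicate 2. Ferritin genes have near-identical copies. The annotation names 17 genes of the family, 7 of them pseudogenes, and only *Fth1* and *Ftl1* are listed in these tumors, so reads from a copy and from its parent gene cannot be told apart.

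Set against each other within a tumor and per length, the chains separated the groups. The FPKM ratio of *Fth1* to *Ftl1* was 8.10, 2.27 and 8.38 in the control tumors and 1.41, 1.23 and 0.979 in the test tumors. Heavy chain mRNA was thus in excess in all control tumors, the 3 test tumors were near equality, and the groups did not overlap. In FPKM, *Fth1* was nearly equal in control replicate 2 (2375) and test replicate 2 (2419). The ratios of these tumors differed through *Ftl1*, at 1046 and 1963 FPKM. The difference of the log2 ratio was -2.17 (exact permutation test, two-sided, p = 0.1, the smallest possible, and 0.2 after Benjamini-Hochberg adjustment over 6 ratios). It was -2.79 without control replicate 2, and over the removal of each tumor it ran from -2.79 to -1.85.

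Transferrin receptor, the route of uptake, overlapped between the groups. *Tfrc* (NCBI Gene 22042, chromosome 16, 32608896 to 32632794) was at 117, 429 and 132 CPM in the control tumors and at 112, 140 and 298 CPM in the test tumors. One tumor of each group, control replicate 2 and test replicate 3, was above the other 4. The log2 fold change was -0.30 (SE 0.59; adjusted p = 0.903, edgeR's quasi-likelihood test, Benjamini-Hochberg; exact permutation test, two-sided, p = 0.8), and it turned to 0.56 without control replicate 2. The 2 tumors with the highest *Tfrc* were also those of lowest *Fth1* within their own group. The FPKM ratio of *Tfrc* to *Fth1* was 0.00233, 0.0377 and 0.00296 in the control tumors and 0.0188, 0.0111 and 0.0656 in the test tumors, with overlap between the groups (exact permutation test, two-sided, p = 0.3, adjusted 0.45). The difference of its log2 was 1.91, and it was 3.19 without control replicate 2 and 1.18 without control replicate 1.

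The divalent metal transporter was lower in each test tumor. *Slc11a2* (NCBI Gene 18174, chromosome 15, 100387898 to 100424209) was at 38.3, 40.9 and 40.9 CPM in the control tumors and at 17.9, 22.8 and 32.2 CPM in the test tumors. The control tumors were nearly equal, control replicate 2 included, and the highest test tumor stayed below them. The log2 fold change was -0.72 with a standard error of 0.29 (adjusted p = 0.551, edgeR's quasi-likelihood test, Benjamini-Hochberg; exact permutation test, two-sided, p = 0.1, the smallest possible), and leaving out each tumor in turn gave -0.96 to -0.54. This gene has 2 transcripts in the files. The GENCODE transcripts searched have 4415 bases with the iron-responsive element and 3025 bases without it. The gene length deposited for each tumor, which lies between them and was 3682, 3628 and 3824 bases in the control tumors and 3491, 3579 and 3659 bases in the test tumors, overlapped between the groups. How that length was averaged is not given in the sources used here.

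Ferroportin, the exporter, had the lowest level of the 10 genes in the control group. *Slc40a1* (NCBI Gene 53945, chromosome 1, 45908070 to 45926532) was at 10.5, 21.5 and 17.6 CPM in the control tumors and at 20.4, 15.0 and 29.8 CPM in the test tumors. The groups overlapped, with a log2 fold change of 0.39 (SE 0.39; adjusted p = 0.801, edgeR's quasi-likelihood test, Benjamini-Hochberg; exact permutation test, two-sided, p = 0.5). The FPKM ratio of export to uptake, *Slc40a1* to *Tfrc*, ran from 0.0744 to 0.198 in control and from 0.147 to 0.271 in test tumors and did not separate them (exact permutation test, two-sided, p = 0.4, adjusted 0.48).

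The iron regulatory proteins overlapped between the groups. *Aco1* (NCBI Gene 11428, chromosome 4, 40143265 to 40199009) was at 93.7, 189 and 115 CPM in the control tumors and at 172, 120 and 153 CPM in the test tumors. *Ireb2* (NCBI Gene 64602, chromosome 9, 54862658 to 54912534) was at 112, 103 and 96.7 CPM in the controls and at 109, 68.7 and 112 CPM in the test tumors. The log2 fold changes were 0.16 (SE 0.32) for *Aco1* and -0.11 (SE 0.26) for *Ireb2*, with adjusted p of 0.907 and 0.925 (edgeR's quasi-likelihood test, Benjamini-Hochberg). Both directions rested on single tumors, since *Aco1* was at -0.04 without control replicate 1 and *Ireb2* at 0.09 without test replicate 2. The ratio of *Ireb2* to *Aco1* in FPKM was below 1 in all 6 tumors, from 0.405 to 0.889 in control and from 0.428 to 0.545 in test tumors.

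Of the 6 ratios, the largest difference was between the secreted carriers. The FPKM ratio of *Ltf* to *Trf* was 0.0219, 0.335 and 0.0336 in the control tumors and 1.33, 1.00 and 0.869 in the test tumors. Transferrin mRNA was the more abundant in every control tumor, and the carriers were close to equal in the test tumors. The ratio of *Ltf* to *Lcn2* was 0.0135, 0.0535 and 0.0101 in the controls and 0.101, 0.144 and 0.139 in the test tumors, also without overlap. The differences of the log2 ratios were 4.07 and 2.70 (two-sided exact permutation test, p = 0.1 in both cases and 0.2 after adjustment over 6 ratios). In both, control replicate 2 was the control tumor nearest to the test tumors, and without it the differences were 5.28 and 3.43. Without control replicate 1 the first was 3.31.

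**Figure D2:**
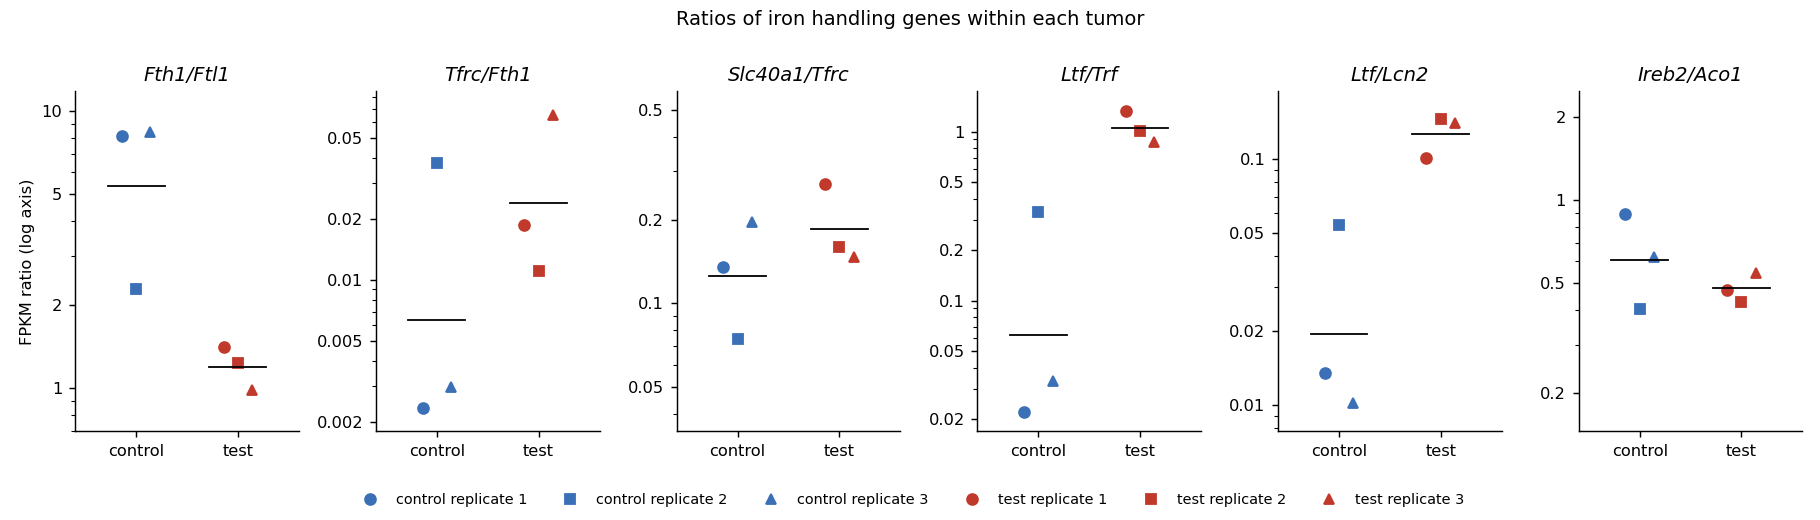
FPKM ratios of 6 pairs of iron handling genes on log axes in 3 control (blue) and 3 test (red) tumors; symbols mark the replicate number and lines the geometric mean of a group. The groups are apart for *Fth1*/*Ftl1*, *Ltf*/*Trf* and *Ltf*/*Lcn2* and overlap for the other 3 ratios.

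Cell types known for these genes were read from marker lists. Of 12 neutrophil genes, 10 were listed and 6 tested, 1 higher and 5 lower in test tumors, with summed levels of 66.7 to 138 CPM in control and 36.8 to 123 CPM in test tumors. *Mpo* and *Ly6g* were not listed at all, and the granule gene *Camp* was at 0 to 0.32 CPM. *Cxcr2* was at 20.7 to 41.6 CPM in control and 12.1 to 49.6 CPM in test tumors, and *Prtn3* at 6.71 to 62.9 CPM in all 6. Of the 8 mammary epithelium markers 7 had a positive and 1 a negative log2 fold change. By edgeR's quasi-likelihood test 3 had an unadjusted p under 0.05 (8.41% over all genes tested) and 0 an adjusted p of at most 0.05. These 8 genes, *Krt18* and *Krt8* among them, summed to 2184, 4216 and 2394 CPM in the control tumors and to 5522, 5580 and 5665 CPM in the test tumors. Of 7 milk protein genes tested, 6 were higher and 1 lower, 2 with an unadjusted p under 0.05 (8.41% over all genes tested). All 10 of that list, *Csn3* and *Lalba* among them, summed to 3452 to 7893 CPM in control and 14204 to 16399 CPM in test tumors. *Csn3* was at 2429 to 6946 CPM in control and 10504 to 15725 CPM in test tumors. Neither sum overlapped between groups. The mean log2 level of the milk genes did overlap, at 6.42, 6.87 and 5.71 in the control and 7.08, 8.81 and 6.27 in the test tumors, and the median log2 fold change of that list went from 1.41 to -0.52 without test replicate 2. The part of neutrophil and milk genes in the result for *Ltf* was not tested.

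Relative to the mean log2 level of the 8 epithelium markers in the same tumor, *Ltf* was at 1.86, 2.33 and 0.08 in the control tumors and at 2.87, 3.80 and 3.28 in the test tumors. The groups were apart, with a difference of 1.89 (exact permutation test, two-sided, p = 0.1, the smallest possible) against 2.95 before the subtraction, and 2.35 without control replicate 2. On this scale 0.204% of all genes tested were higher without overlap. Another 6 of the 10 genes were lower without overlap, against 50.8% of all genes tested. They were *Fth1* (-3.13), *Trf* (-2.17), *Slc11a2* (-1.80), *Ireb2* (-1.19), *Aco1* (-0.85) and *Slc40a1* (-0.67). Without control replicate 2, *Fth1* was at -4.07 and *Trf* at -2.93. This scale, added after the data were seen, subtracts markers that were themselves mostly higher in the test tumors. It thus shifts the difference of every gene toward lower in test tumors. The scale turned *Lcn2*, *Ftl1*, *Slc40a1* and *Aco1* from higher to lower, and the 0.204% gives no separate support for the rise of *Ltf*.

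Sums of the other lists overlapped between the groups. Macrophage genes, among them *Lyz2* and *C1qa*, summed to 595 to 1187 CPM in control and 472 to 1134 CPM in test tumors. Erythroid and blood genes, among them *Hba-a1* and *Hbb-bs*, summed to 148 to 555 CPM and 341 to 468 CPM, with the lowest value in control replicate 2, and *Hbb-bt* was not listed. Proliferation genes, among them *Mki67* and *Top2a*, which go with transferrin receptor in many dividing cells, summed to 683 to 1411 CPM and 682 to 1171 CPM. Their highest sum was in control replicate 2, the tumor with the highest *Tfrc*, and their part in the level of *Tfrc* was not tested. Acute phase genes, among them *Lrg1* and *Lbp*, ran from 786 to 1705 CPM in control and 571 to 1699 CPM in test tumors, and NRF2 targets, among them *Prdx1* and *Slc7a11*, from 1112 to 1548 CPM and 1000 to 1758 CPM. Skeletal muscle genes, among them *Myh4* and *Atp2a1*, were unequal among tumors, from 8.74 to 235 CPM in control and from 127 to 1387 CPM in test tumors. Fibroblast genes, among them *Col1a1* and *Postn*, ran from 1464 to 2840 CPM and 1395 to 4472 CPM, and adipocyte genes, among them *Fabp4* and *Adipoq*, from 13.2 to 30.1 CPM and 15.2 to 251 CPM. All 10 muscle genes had a positive log2 fold change (median 2.96), 1 with an unadjusted p under 0.05 by edgeR's quasi-likelihood test. So had the 3 adipocyte genes tested (median 2.03), 2 with such a p. Over all genes tested, 51.5% were positive and 8.41% had such a p. Without test replicate 1 the medians were 1.31 and 0.84. Each other list of this paragraph held genes of both directions.

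**Figure D3:**
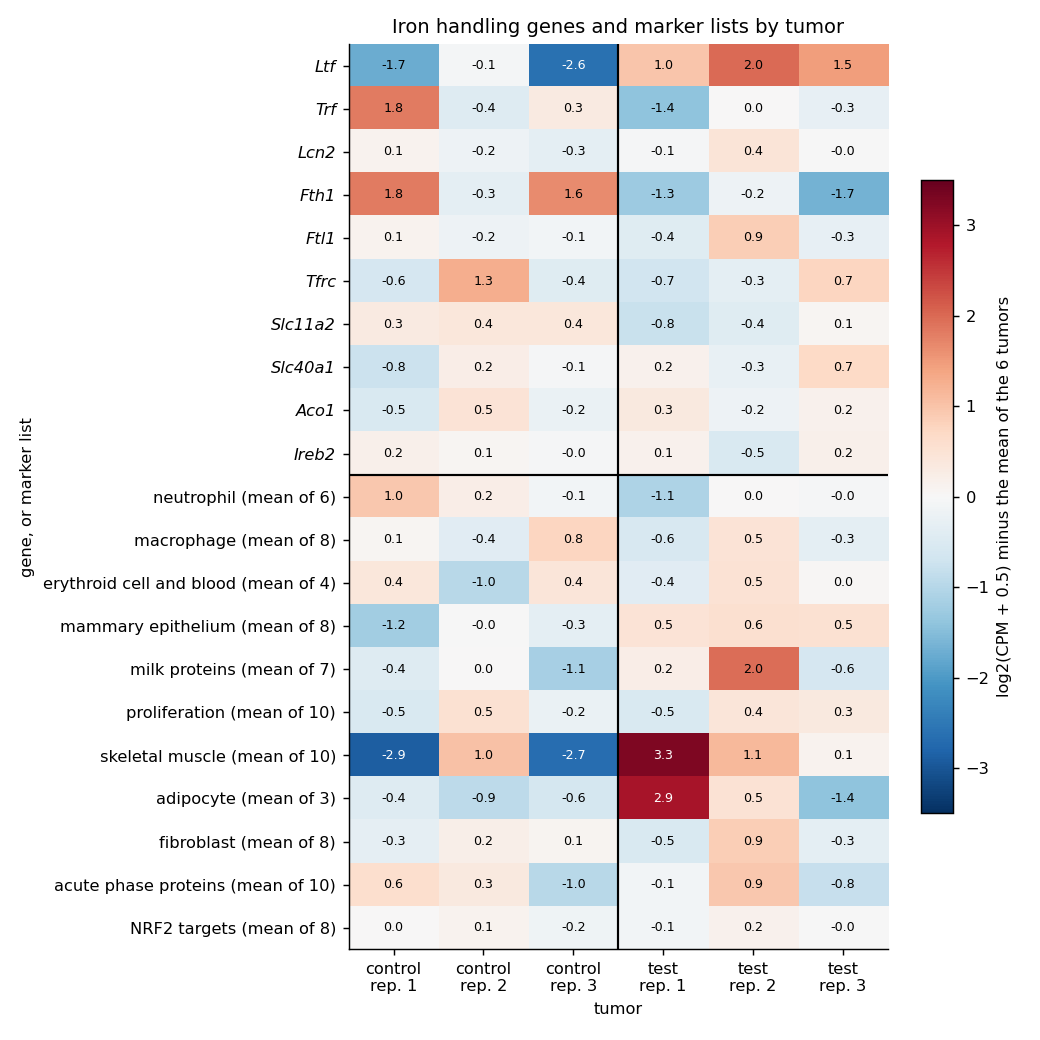
Log2(CPM + 0.5) of the 10 iron handling genes (upper rows) and mean log2 of the tested genes of 11 marker lists (lower rows) in each tumor, minus the mean of the 6 tumors; red is above and blue below that mean. *Ltf* and the mean of the mammary epithelium list are higher in each test tumor than in any control tumor, and the neutrophil list overlaps.

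The remaining iron genes gave the setting. Of 58 genes in 7 roles, 56 were listed and 46 tested, of which 21 were higher and 25 lower in the test group, the median log2 fold change being -0.05. By edgeR's quasi-likelihood test 0 passed at a false discovery rate of 0.05 and 6 (13.0%, against 8.41% of all genes tested) had an unadjusted p under 0.05, 2 higher and 4 lower. That count was 2 of 48 without control replicate 1 (4.65% of all genes) and 14 of 51 without control replicate 2 (14.3% of all genes). DESeq2 called 1, *Steap4* (2.32% of all genes), limma called 0 and the pooled Poisson test 37, among 9608 of the 13706 genes tested. Groups were free of overlap for 2 on the higher and 3 on the lower side, against 6.12% and 5.86% of all genes tested. The ferrireductase *Steap4* had the lowest adjusted p of the 46 (0.394, edgeR's quasi-likelihood test, Benjamini-Hochberg). It was at 631, 134 and 412 CPM in the control tumors and at 109, 47.7 and 37.5 CPM in the test tumors, without overlap, a log2 fold change of -2.60.

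Of 10 genes of uptake, reduction and oxidation tested, 3 had an unadjusted p under 0.05, 1 higher and 2 lower. Over all genes tested the share was 8.41%, with 3.15% higher and 5.26% lower. A negative log2 fold change was found for 7 of the 10, as for 48.5% of all genes tested. Besides *Steap4* the lower ones included *Slc11a1*, the phagosomal metal transporter, at 5.19 to 12.9 CPM in control and 4.15 to 4.35 CPM in test tumors (log2 fold change -1.17, no overlap), the zinc and iron importer *Slc39a14* (-0.91) and the ferroxidase *Cp* (-0.60), both with overlap. Its homolog *Heph* was higher at a low level, 1.84 to 3.59 against 5.54 to 8.06 CPM (1.11, no overlap), the membrane-bound transferrin relative *Meltf* was at 1.10 and the endosomal ferrireductase *Steap3* at 0.10, both with overlap. For heme, the heme-degrading enzyme *Hmox1* was at 133, 23.7 and 64.2 CPM in the control tumors and at 14.3, 22.2 and 27.4 CPM in the test tumors (-1.79). As with *Fth1*, control replicates 1 and 3 were high and control replicate 2 was among the test tumors. The same held for *Lrp1*, a receptor for the heme and hemopexin complex, with 1390, 169 and 807 CPM in the controls and 121 to 292 CPM in the test tumors (-2.11). Haptoglobin (*Hp*) was at -0.43 with overlap.

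The 4 genes tested of ferritin storage, delivery and turnover overlapped between the groups, with log2 fold changes from -0.45 to -0.05. *Ncoa4*, the receptor for ferritin breakdown, was at -0.45, and *Fbxl5*, which marks *Ireb2* protein for degradation when iron is high, was at -0.05 with 44.6 to 61.0 CPM in all 6 tumors. The lipocalin 2 receptor *Slc22a17* was at -1.17 with overlap. Of the 15 genes of mitochondrial iron, iron-sulfur clusters and heme synthesis, 11 had a positive and 4 a negative log2 fold change (51.5% of all genes tested were positive). Only the mitochondrial iron importer *Slc25a28* had an unadjusted p under 0.05, against 8.41% of all genes tested. It was at 16.2 to 25.4 CPM in control and 28.4 to 53.2 CPM in test tumors (0.87, no overlap). Of the 9 genes of the hepcidin axis, 3 had enough counts to be tested. *Hamp*, which encodes hepcidin, was not listed, *Tfr2* had 1 to 5 counts in control and 3 to 12 counts in test tumors and was not tested, and *Hfe* was at 0.16.

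**Figure D4:**
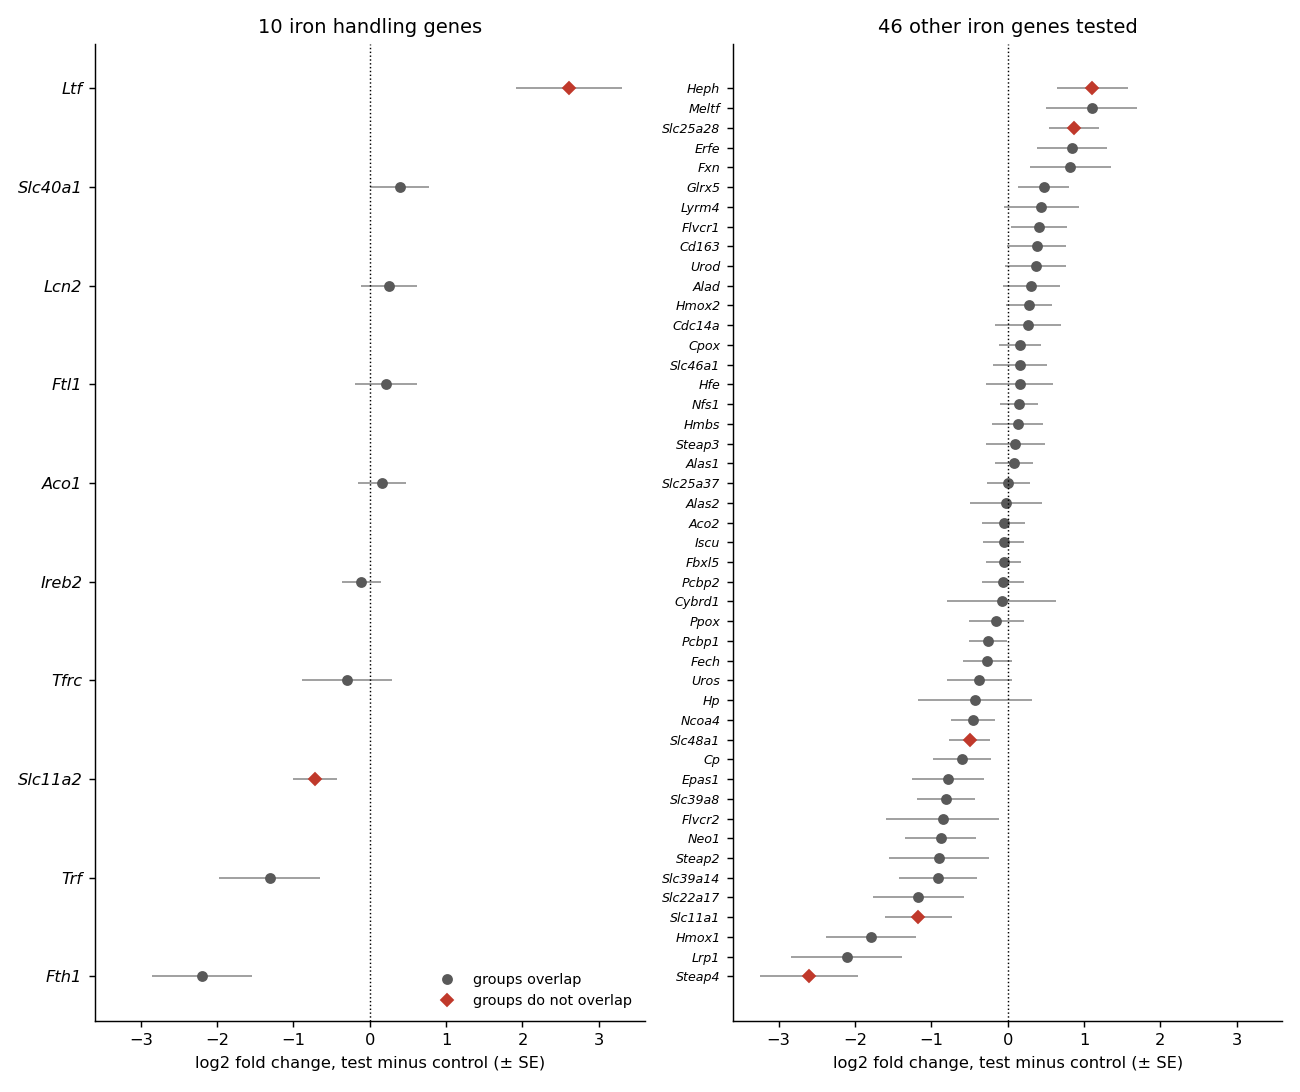
Log2 fold change, test minus control, with its standard error from edgeR for the 10 iron handling genes (left) and the 46 other iron genes tested (right); red diamonds mark genes whose groups do not overlap. *Ltf* is at 2.61 and *Fth1* at -2.20, and the other iron genes run from *Heph* at 1.11 to *Steap4* at -2.60.

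Genes whose levels followed those of the carriers and of ferritin were sought among 13696 others by Pearson's correlation of log2(CPM + 0.5) over the 6 tumors, given as a description since the points share the tumors, their depth and the difference between groups. The 5 most like *Ltf* were *Rarres2* (0.995), *9130008F23Rik* (0.995), *Ovol2* (0.989), *Acot9* (0.988) and *Snhg5* (0.987), of 46 genes at 0.95 or above. Those most like *Lcn2* were *Lalba* (0.988), *Chrna1* (0.987), *Anxa8* (0.977), *Depdc7* (0.971) and *Pacrgl* (0.965), of 9 genes at that level. *Lalba*, which encodes the milk protein alpha-lactalbumin, peaked with *Lcn2* in test replicate 2, at 2102 CPM, and was next highest in control replicate 1, at 388 CPM. *Fth1* had 107 genes at 0.95 or above, led by *Scrn1* (0.997), *Scrg1* (0.996), *Ckb* (0.996), *Anks6* (0.994) and *Hip1* (0.993). All 5 were at a log2 fold change between -3.27 and -1.72.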

How the data were processed

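RNA of 3 control and 3 test tumors was sequenced by BGI on an Illumina HiSeq. Per the labels and the study's methods, reads were aligned to mm10; the submitters' processing notes name Bowtie, BWA and RSEM without a role, and the annotation release is not given in the sources used here. The authors deposited expected counts per gene, without normalization, and FPKM values, normalized for length and depth. A gene not listed in a tumor was set to 0.

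Expected counts (79 to 80.1% whole) were rounded and analyzed with edgeR 4.0.16 in R 4.3.3 (filterByExpr, TMM, quasi-likelihood test, Benjamini-Hochberg over 13706 genes, no covariate). CPM values were log2 transformed with a pseudocount of 0.5, FPKM ratios with 0.1. Permutation tests were exact and two-sided over 20 splits. The code was tested on simulated data.

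The 10 genes, the 58 other iron genes and the marker lists were chosen with earlier results of these data known. Named in the text were all 10, a set of 15 other iron genes with any at an unadjusted p under 0.05, the 2 highest genes of each marker list, and the 5 genes most like *Ltf*, *Lcn2* and *Fth1*. *Mpo*, *Ly6g*, *Camp*, *Hbb-bt*, *Tslp* and *Cd4* were named as checks. Alternatives were DESeq2 1.42.0, RLE scaling, no filter, at least 10 counts in every tumor, limma 3.58.1 on log2(FPKM + 1) and log2(FPKM + 0.1), a block for the replicate number, a Poisson test on pooled counts and leaving out each tumor. The epithelium reference and the shares of all genes with a tumor left out were added after the data were seen.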

Additional observations from a re-analysis of the deposited data

How the results depend on the processing

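Of 267 alternative values of counts, fold changes and ratios, 237 were classed as the same as the main result. For fold changes this meant the same direction and side of the threshold. For counts it took in small shifts, such as 2 or 4 instead of 3 of the 10 genes at an unadjusted p under 0.05. The share of all genes beside such a count was not computed for every alternative. For ratios it could only reflect direction, since the exact permutation test cannot give a p below 0.1. Of 77 medians of marker lists, 72 moved by less than the spread between tumors, the others being macrophage (0.13 without control replicate 3), skeletal muscle (5.95 without control replicate 2), and milk (-0.52), fibroblast (-0.49) and acute phase genes (-1.52) without test replicate 2. For the count of the 10 genes at a false discovery rate of 0.05, DESeq2 gave 2, the pooled Poisson test 10 and leaving out each tumor 0 to 1, the 1 without control replicate 2. Over all genes DESeq2 called 344, limma on log2(FPKM + 1) 1, the Poisson test 9608 and leaving out each tumor 0 to 182. At an unadjusted p under 0.05 the Poisson test gave 10 of the 10 and 37 of the other iron genes. Its share of all genes at that p was not computed, but 9608 of 13706 genes passed even the false discovery rate of 0.05. For the other iron genes, leaving out each tumor gave 2 (without control replicate 1, 4.65% of all genes) to 14 (without control replicate 2, 14.3% of all genes). Groups did not overlap for 2 to 5 of the 10 when a tumor was left out, the 5 without control replicate 2 being *Ltf*, *Trf*, *Fth1*, *Slc11a2* and *Aco1* (35.1% of all genes tested then), and for 4 without test replicate 2 (22.4%). The log2 fold change of *Ltf* was 2.60 by DESeq2 and by the Poisson test and 2.20 to 3.65 over the removal of tumors, and that of *Fth1* was -2.21 by DESeq2 and -2.23 by the Poisson test. The Poisson test, which takes no spread between tumors, called *Trf* at -1.29, *Lcn2* at 0.25, *Ftl1* at 0.18, *Tfrc* at -0.28, *Slc11a2* at -0.71, *Slc40a1* at 0.41, *Aco1* at 0.16 and *Ireb2* at -0.09. Leaving out 1 tumor reversed *Ftl1* (-0.31 to 0.43), *Tfrc* (-0.84 to 0.56), *Aco1* (-0.04 to 0.51) and *Ireb2* (-0.22 to 0.09). Relative to the epithelium markers, *Lcn2* (-0.81), *Ftl1* (-0.96), *Slc40a1* (-0.67) and *Aco1* (-0.85) reversed. The cause of these shifts was not tested beyond the fewer tumors or the reference subtracted.

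Same-numbered tumors came from different mice and did not deviate together (r = -0.025, 0.121 and -0.137), so the numbers were not used as pairs. With the replicate block, 0 of the 10 and 0 of all genes passed a false discovery rate of 0.05. The log2 fold changes were 2.94 for *Ltf*, -2.19 for *Fth1* and -0.76 for *Slc11a2*. An unadjusted p under 0.05 was found for 3 of the 10. The share of all genes with this block was not computed, so that count has no background to be set against. The sign-flip test of paired ratios cannot go below 0.25.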
